A study of Mus musculus with 6 samples.

Results

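The cytochrome P450 genes were followed in the mouse astrocyte line C8-D1A, which grew from a single clone, after pulsed radiofrequency (PRF), bursts of high-frequency current. Members were all genes whose symbol is Cyp, a number and a letter, with Cyp51 left out, and whose transcript has a probe on the array. This gave 100 genes on 120 probes, of 22907 named genes and 56605 probes in all. RNA from 3 PRF samples and 3 untreated control samples was hybridised to 6 one-colour Agilent arrays, 1 sample per array, and the labels describe 3 independent experiments. Both groups were cells of this line, grown in serum and moved to serum-free medium before use, and the labels name the stimulation as the difference between them. As a model this is 1 cloned line in culture, and the sources used here do not give the current settings, the duration or the time from stimulation to RNA.

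Cytochrome P450 enzymes hold a heme iron and use electrons from a reductase to add oxygen to their substrates. The Cyp1, Cyp2 and Cyp3 families handle drugs and other foreign compounds as well as fatty acids and steroids, the Cyp4 family mainly hydroxylates fatty acids and leukotrienes, and single genes make or break down steroid hormones, vitamin D, retinoic acid and oxysterols. In the brain, astrocytic P450 enzymes are known for turning arachidonic acid into epoxides that act on blood vessels.

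Levels below are log2 signals relative to the 75th percentile of the same array, so a level of 0 is the signal of that percentile and each unit is a doubling. That percentile was 634, 544 and 553 signal units on the PRF arrays and 674, 635 and 597 on the control arrays. Arrays correlated at 0.994 to 0.997 within a group and at 0.959 to 0.977 between groups. Of 10 astrocyte markers 8 were tested. The marker Glul rose (log2 change 0.29, limma, adjusted p = 0.0115), Gfap, Aqp4 and Slc1a2 were well above background on every array with log2 changes of 0.08, -0.03 and -0.10 that did not pass, and Gja1 and Slc1a3 were well above background on no array. Of the neuron, oligodendrocyte and microglia markers, 1 of 3, 1 of 5 and 1 of 2 tested genes rose and 0, 2 and 1 fell. Over all tested genes 17.3% rose and 14.9% fell. The microglial genes Aif1, Cx3cr1 and P2ry12 were well above background on no array. The summed signal of the 8 tested astrocyte markers, relative to the 75th percentile, was 184 to 190 on the PRF arrays and 162 to 174 on the control arrays. That of the 2 tested microglia markers, of which 1 rose and 1 fell, was 12.7 to 17.4 on the PRF arrays. On the control arrays it was 8.43 to 8.87. The part of these shifts in the results below was not tested.

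A minority of the P450 probes was well above background by the scanner software's own flag. The PRF arrays showed 49, 50 and 47 of the 120 P450 probes above background and the control arrays 39, 41 and 41. Of all probes, 62.1% to 63.9% were above background on the PRF arrays and 59.5% to 61.2% on the control arrays, so both counts were higher on every PRF array. The test took probes with that flag on every array of PRF, of control or of both, and 46 P450 probes had it (38.3%, against 61.5% of all probes). On all 6 arrays it was set for 36 of the 120 P450 probes, against 56.6% of all probes. Of the 76 P450 probes seen on no control array, 6 were seen on all PRF arrays (7.89%, against 5.38% of all such probes), and of the 68 seen on no PRF array none was seen on all control arrays (0.417% of all such probes). The 46 probes stood for 41 genes, of which 33 were above background on all 6 arrays. A further 7 genes were seen on 1 or 2 arrays of a group, and 52 were seen on no array. Among the 52 were Cyp1b1, Cyp19a1 (the aromatase that makes oestrogens), Cyp7a1, Cyp27a1, Cyp11a1, Cyp2e1 and all 4 Cyp2a genes. In bulk RNA, fewer cells with a transcript and less of it in each cell cannot be told apart.

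Most of the tested P450 genes that moved were higher after PRF. Of the 41, 14 rose, 1 fell and 26 did not pass (limma, Benjamini-Hochberg adjusted p over 15066 genes, threshold 0.05). The 14 are 34.1% of the tested P450 genes, where 17.3% of all tested genes rose, and the 1 is 2.44%, where 14.9% of all tested genes fell. A gene that is dim in control cells could enter the test only by being bright in PRF cells, so the 33 genes seen on all 6 arrays were counted apart. There 8 rose (24.2%, against 13.5% of all such genes) and 1 fell (3.03%, against 15.8%). When the test was refitted on genes seen on all 6 arrays, 8 rose (24.2%, against 14.1%) and 3 fell (9.1%, against 16.5%). Cyp17a1 and Cyp2c70 then passed as lower (adjusted p = 0.0407 and 0.0438), having narrowly missed before (0.0504 and 0.0507). Of the 6 tested P450 genes seen on no control array 5 rose, as did 98.1% of all such genes, a share the entry rule fixes. Counted by probe, 14 of 46 rose (30.4%, against 18.4% of all tested probes) and 1 fell (2.17%, against 12.7%). The median log2 change was 0.09 over the 41 genes and 0.02 over the 33, beside -0.0059 and -0.02 over all genes counted in the same way. Setting the genes that have only a bound at that bound leaves the first median as it is, since all of them lie above it. Most P450 genes in the test thus lay near no change, while a few lay far above it.

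The size of the changes was uneven. Among the 33 genes seen on all 6 arrays, Cyp2c65, Cyp2c55 and Cyp27b1 rose at least 4-fold (9.09%, against 1.33% of all such genes), and with Cyp2d40 and Cyp26b1 5 rose at least 2-fold (15.2%, against 4.05%). Cyp2c66, Cyp2c23, Cyp3a57 and Cyp3a25 had large changes too, but their control signals were at or near background, so those sizes depend on that floor. No P450 gene fell by as much as 2-fold, where 0.518% of all tested genes did, though Cyp2u1, at 1.96-fold, passed that size under other scalings (log2 changes of -1.02 to -1.26) and was at -0.35 with the normexp background correction. All 15 genes that passed had PRF and control arrays that did not overlap, which a pass with 3 arrays per group largely brings with it. The share among all genes that passed was not counted. Over the 33, 13 genes lay higher without overlap (39.4%, against 22.1% of all such genes) and 3 lay lower (9.09%, against 27.1%).

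**Figure D1:**
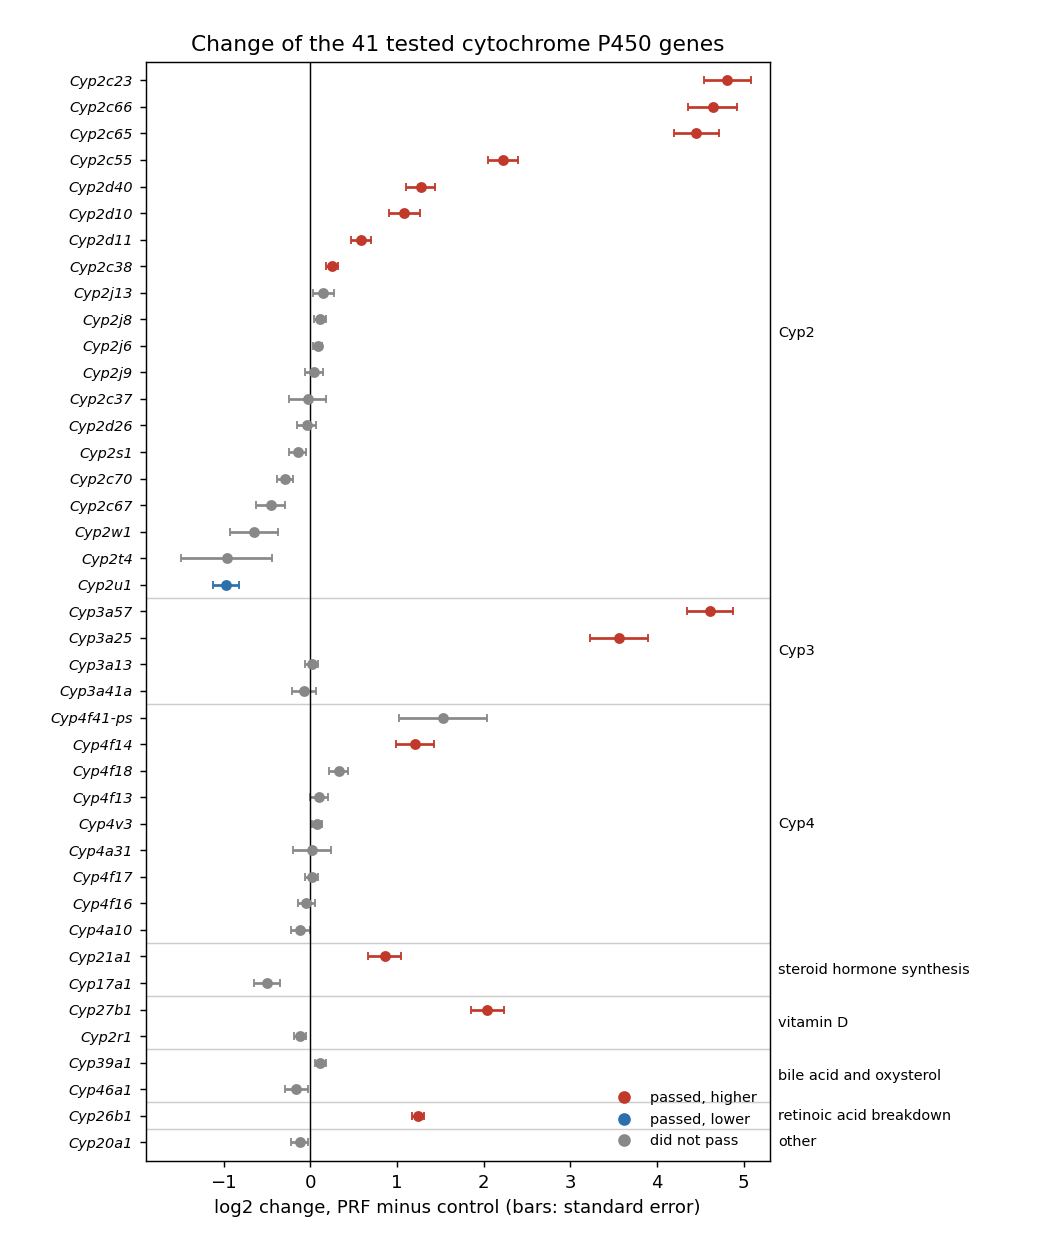
Log2 change, PRF minus control, of the 41 tested P450 genes (x axis), grouped by family or function, with the standard error as bars (n = 3 arrays each). Red points passed the test higher, the 1 blue point (Cyp2u1) passed lower, and grey points did not pass. As plotted, 7 red points lie above 2. Cyp2c23, Cyp3a57, Cyp3a25, Cyp4f14, Cyp2d10 and Cyp4f41-ps were well above background on no control array. For these genes the plotted change is not a measured size, and only a bound can be given. For Cyp3a25 that bound is 2.73-fold.

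The largest rises were in the Cyp2c subfamily, enzymes that make epoxides and hydroxylated products from arachidonic acid. Of 16 Cyp2c genes with a probe, 8 were tested and 8 were seen on no array. Of those tested 5 rose and none fell, beside 17.3% and 14.9% of all tested genes. Cyp2c55, Cyp2c65 and Cyp2c66 are known from the mouse gut, and Cyp2c23 is an arachidonic acid epoxygenase of the kidney. The 250 bases before the start of the 3 neighbours on chromosome 19 are shown because these genes follow each other, apart from a pseudogene, and all rose. They are from RefSeq, build GRCm38.p6, plus strand, at chr19:39006769-39007018, chr19:39060756-39061005 and chr19:39113648-39113897. Capitals mark the letters TATAAA.
Cyp2c55: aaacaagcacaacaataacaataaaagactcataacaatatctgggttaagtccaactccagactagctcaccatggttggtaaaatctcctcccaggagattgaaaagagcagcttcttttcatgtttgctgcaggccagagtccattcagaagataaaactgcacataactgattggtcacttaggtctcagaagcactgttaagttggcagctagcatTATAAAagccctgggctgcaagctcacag
Cyp2c65: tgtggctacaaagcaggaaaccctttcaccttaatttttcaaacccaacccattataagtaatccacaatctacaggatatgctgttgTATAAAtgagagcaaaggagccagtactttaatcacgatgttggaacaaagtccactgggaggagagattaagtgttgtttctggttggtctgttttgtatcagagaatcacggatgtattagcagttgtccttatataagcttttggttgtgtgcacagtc
Cyp2c66: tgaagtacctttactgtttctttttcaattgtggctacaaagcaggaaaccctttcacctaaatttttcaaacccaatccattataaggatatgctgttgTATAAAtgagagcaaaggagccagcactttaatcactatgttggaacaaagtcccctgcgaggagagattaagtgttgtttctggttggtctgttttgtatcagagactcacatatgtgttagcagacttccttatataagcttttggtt
The TATAAA begins 29 bases before the start in Cyp2c55, 162 bases before it in Cyp2c65 and 150 bases before it in Cyp2c66. The stretches of Cyp2c65 and Cyp2c66 were identical at 74.6% of aligned positions, while either of them matched the other Cyp2c genes at 48.0% to 56.0% and Cyp2c55 matched the other Cyp2c genes at 49.2% to 55.2%.

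Cyp2c65 had levels of -0.14, -0.63 and -1.04 on the PRF arrays, against -4.82, -5.42 and -4.92 on the control arrays. Every PRF array lay far above every control array, and the probe was above background on all 6. The change was 21.9-fold (log2 change 4.45, SE 0.26, adjusted p = 1.40e-04), and Cyp2c65 ranked 14 by rise among the 14041 genes seen on all 6 arrays. Cyp2c66 had levels of -0.57, -1.10 and -1.44 on the PRF arrays, against -6.11, -5.31 and -5.62 on the control arrays, of which 1 was well above background. That is a 25.0-fold change (log2 change 4.64, SE 0.28, adjusted p = 1.64e-04), measured against control signals close to background.

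Cyp2c55 was above background on all 6 arrays, with levels of -0.994, -0.998 and -1.41 in PRF cells, against -3.12, -3.31 and -3.64 in control cells. It rose 4.66-fold (log2 change 2.22, SE 0.17, adjusted p = 3.67e-04). A second probe of Cyp2c55 read -2.43, -2.46 and -2.68 in PRF cells, against -5.79, -5.98 and -5.38 in control cells, a log2 change of 3.19 with an SE of 0.16. Both probes of this gene moved in the same direction, though the second was above background on only 1 control array.

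Cyp2c23 had levels of -2.17, -2.24 and -2.79 in PRF cells. The control arrays read -7.75, -6.82 and -7.08, none of them well above background, so only a bound can be given. The bound sets the PRF mean over the lowest signals that counted as well above background on the control arrays. By it Cyp2c23 was at least 10.3-fold higher. Its adjusted p of 1.29e-04 is for the difference of the readings (log2 change 4.81) and not for the bound. The same holds for the adjusted p given with the bounds of Cyp3a57, Cyp3a25, Cyp2d10, Cyp4f14 and Cyp4f41-ps below. All these genes entered the test only through the PRF arrays. In the same subfamily Cyp2c38 moved little, with -3.48, -3.44 and -3.62 in PRF cells, against -3.82, -3.76 and -3.71 in control cells (1.19-fold higher, adjusted p = 0.0384), and its change turned to -0.050 under quantile normalization. The rise of Cyp2c38 is the least secure of the 14, as it held under only 4 of 19 alternatives. Cyp2c70, which makes muricholic acids in mouse liver, Cyp2c67 and Cyp2c37 had log2 changes of -0.30, -0.46 and -0.03 with adjusted p of 0.0507, 0.0841 and 0.932. Cyp2c70 passed as lower with quantiles, the median of tested probes, the deposited scale and the spike-ins (adjusted p = 0.0028 to 0.0408). It also did with the filter on all 6 arrays and without control replicate 2 (adjusted p = 0.0438 and 0.0258). Cyp2c67 passed as lower with quantiles, the deposited scale and the spike-ins (adjusted p = 0.0038 to 0.0351). In chromosomal order Cyp2c55, Cyp2c65 and Cyp2c66 are the first Cyp2c genes with a probe, with the pseudogene Cyp2c52-ps between them and Hells. On that side Hells had a log2 change of -0.07 (adjusted p = 0.459), Tbc1d12 of -0.0045 (adjusted p = 0.968), and Noc3l rose by 0.28 (adjusted p = 0.00749). Pdlim1 beyond the far end had a log2 change of 0.04 (adjusted p = 0.718). Cyp2c23 lies apart from that cluster on the same chromosome.

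The Cyp3a subfamily, which oxidises drugs, steroids and bile acids in liver and gut, had 8 genes with a probe. Of these 4 were tested and 2 rose, where 17.3% of all tested genes rose. Cyp3a57 and Cyp3a25 were both well above background on every PRF array and on no control array. Their upstream stretches and that of Cyp3a59 are shown because the 3 carry the same pair of sequence elements. They are from RefSeq, build GRCm38.p6, at chr5:145345019-145345268 on the plus strand, chr5:146009619-146009868 on the minus strand and chr5:146079008-146079257 on the plus strand. Capitals mark AGGTCA and its reverse complement TGACCT, the half-site that many nuclear receptors bind.
Cyp3a57: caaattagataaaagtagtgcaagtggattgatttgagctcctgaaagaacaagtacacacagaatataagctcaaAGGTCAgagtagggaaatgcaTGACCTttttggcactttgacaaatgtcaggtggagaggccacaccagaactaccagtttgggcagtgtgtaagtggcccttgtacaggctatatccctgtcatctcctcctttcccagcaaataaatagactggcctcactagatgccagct
Cyp3a25: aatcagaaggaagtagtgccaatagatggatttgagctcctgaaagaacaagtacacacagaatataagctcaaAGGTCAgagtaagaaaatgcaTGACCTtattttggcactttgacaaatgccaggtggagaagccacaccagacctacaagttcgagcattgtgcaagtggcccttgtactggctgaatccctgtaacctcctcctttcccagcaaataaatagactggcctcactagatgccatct
Cyp3a59: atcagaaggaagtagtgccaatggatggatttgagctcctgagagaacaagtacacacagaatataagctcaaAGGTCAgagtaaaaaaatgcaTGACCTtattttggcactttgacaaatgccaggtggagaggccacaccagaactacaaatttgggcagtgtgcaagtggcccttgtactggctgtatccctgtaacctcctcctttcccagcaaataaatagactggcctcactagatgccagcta
In each of them AGGTCA is followed by TGACCT after 15 bases, beginning 174, 176 and 177 bases before the start. That pair at that distance was found before the start of 3 of 27025 genes (0.0111%), which are these same 3. Their stretches were identical with each other at 88.9% to 94.8% of aligned positions and with other Cyp3a genes at 51.3% to 57.6%, so the pair is part of a longer shared stretch. A match is a description of letters and no evidence of binding.

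Cyp3a57 had levels of -2.77, -3.82 and -3.59 in PRF cells, against -8.12, -8.01 and -7.90 in control cells. The PRF cells were at least 5.19-fold higher (adjusted p = 1.29e-04). Cyp3a25 had -3.62, -4.31 and -5.04 in PRF cells, against -7.99, -7.90 and -7.76 in control cells, and was at least 2.73-fold higher (adjusted p = 7.54e-04). No control reading of either gene was well above background, so their separation from PRF follows from how genes entered the test. Cyp3a59 was outside the test, since 1 PRF array and no control array was well above background. It read -5.12, -6.33 and -6.19 in PRF cells, against -7.92, -7.84 and -7.74 in control cells. Cyp3a13 and Cyp3a41a were seen on all 6 arrays and had log2 changes of 0.02 and -0.07 (adjusted p = 0.877 and 0.727). Cyp3a41a lies between Cyp3a57 and Cyp3a25 on chromosome 5. Outside the row of Cyp3a genes, Zscan25 next to Cyp3a57 had a log2 change of 0.27 (adjusted p = 0.0574), Zfp655 before it rose by 0.54 (adjusted p = 0.00112) and 1700001J03Rik beyond Cyp3a59 rose by 0.86 (adjusted p = 0.00453).

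**Figure D2:**
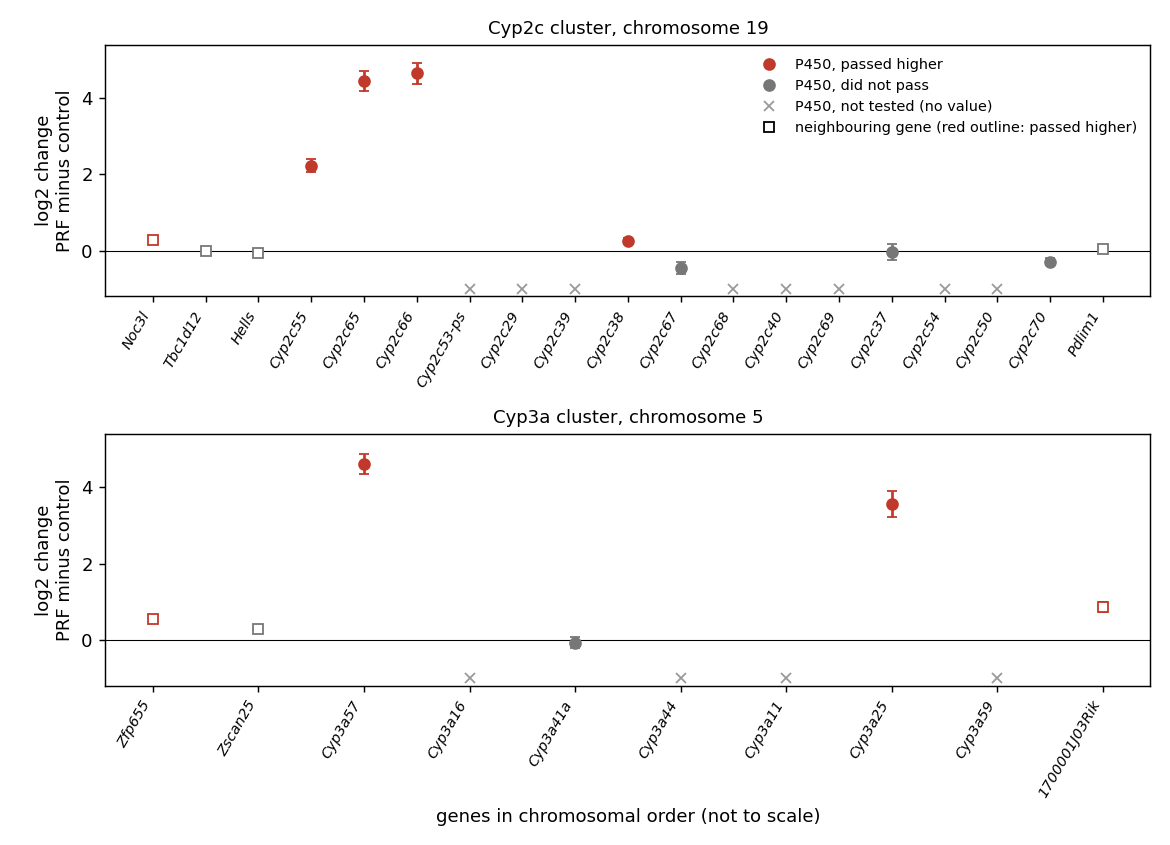
Log2 change, PRF minus control, with standard error (n = 3 arrays each), of the genes of the Cyp2c cluster on chromosome 19 (above) and the Cyp3a cluster on chromosome 5 (below), in chromosomal order and not to scale. Circles are P450 genes, squares are neighbouring genes with a red outline where they rose, and crosses at the foot are P450 genes that were not tested. As plotted, Cyp2c55, Cyp2c65, Cyp2c66, Cyp3a57 and Cyp3a25 stand above 2 and the other tested genes between -0.46 and 0.86. Cyp3a57 and Cyp3a25 were well above background on no control array. Only bounds of 5.19-fold and 2.73-fold can be given for them.

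The genes of these 2 subfamilies are close relatives, the probe sequences were not used here, and whether a probe binds the RNA of a neighbour was not tested. Cyp2c and Cyp3a enzymes are abundant in liver, so hepatocyte markers were read beside them. Of 7 such markers 3 were tested and 2 rose, Apoa1 (at least 1.74-fold higher) and Serpina1a (log2 change 0.31, adjusted p = 0.0439), while Alb and Fgb, which define the hepatocyte, were well above background on no array. Over all tested genes 17.3% rose. The summed signal of the 3 tested markers, relative to the 75th percentile, was 1.79 to 1.83 on the PRF arrays and 1.81 to 1.86 on the control arrays. These ranges overlapped, and Alb and Fgb were outside the sum.

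Smaller rises were seen in the Cyp2d subfamily, relatives of the enzymes that clear many drugs in human liver. Of 10 Cyp2d genes 4 were tested and 3 rose, where 17.3% of all tested genes rose. Cyp2d10, among the 3, entered the test only through the PRF arrays. Cyp2d40 read -3.12, -2.96 and -3.23 in PRF cells, against -4.22, -4.17 and -4.75 in control cells (2.42-fold higher, adjusted p = 0.00260). Cyp2d11 read -1.06, -1.09 and -1.47 in PRF cells, against -1.80, -1.82 and -1.75 in control cells (log2 change 0.58, SE 0.12, adjusted p = 0.0121). Cyp2d10, well above background on no control array, read -4.85, -5.11 and -5.51 in PRF cells, against -6.25, -6.42 and -6.05 in control cells, at least 1.53-fold higher (adjusted p = 0.00629). Cyp2d26, the remaining tested gene, had a log2 change of -0.04 (adjusted p = 0.805).

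The single gene that fell was Cyp2u1, which hydroxylates long-chain fatty acids and was described in human brain and thymus. It read -4.26, -3.89 and -4.08 in PRF cells, against -3.09, -3.35 and -2.87 in control cells. The groups did not overlap, and PRF cells were 1.96-fold lower (log2 change -0.97, SE 0.15, adjusted p = 0.00442). Cyp2t4 had a log2 change of nearly the same size, -0.96, that did not pass (adjusted p = 0.210). Its levels were -3.73, -4.01 and -4.20 in PRF cells, against -3.13, -1.85 and -4.07 in control cells, so the control arrays spread over more than 2 units and overlapped with PRF.

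None of the 4 tested Cyp2j genes passed. These are arachidonic acid epoxygenases, and Cyp2j9 is known as abundant in mouse brain. Cyp2j9 read 2.35, 2.21 and 2.34 in PRF cells, against 2.34, 2.39 and 2.05 in control cells, a log2 change of 0.04 with an SE of 0.10. Cyp2j6, Cyp2j8 and Cyp2j13 had log2 changes of 0.09, 0.11 and 0.15, with adjusted p of 0.248, 0.236 and 0.392. The counts of rises were thus 0 of 4 in the Cyp2j subfamily and 5 of 8 in the Cyp2c subfamily, where 17.3% of all tested genes rose. The 2 counts are not on the same footing. Cyp2c23 and Cyp2c66 entered the test only through the PRF arrays, while all 4 Cyp2j genes were seen on all 6 arrays. The difference between the subfamilies was not tested. Of the rest of the Cyp2 family, Cyp2s1 and Cyp2w1 had log2 changes of -0.14 and -0.65 that did not pass (adjusted p = 0.307 and 0.129).

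In the Cyp4 family, 9 of 21 genes were tested, 1 rose and none fell, beside 17.3% and 14.9% of all tested genes. The gene that rose was Cyp4f14, a mouse enzyme that hydroxylates leukotriene B4. It read -5.23, -4.88 and -4.79 in PRF cells, against -6.03, -6.64 and -5.86 in control cells, none of which was well above background, and was at least 1.74-fold higher (adjusted p = 0.00914). Cyp4f41-ps, a transcribed pseudogene, was also seen only in PRF cells, with -5.33, -5.34 and -5.39, against -8.14, -6.43 and -6.10 in control cells. Its bound was at least 1.34-fold higher and its adjusted p 0.0618, and without control replicate 1, which was the lowest array, the log2 change was 0.91 in place of 1.54 with an adjusted p of 0.00506. Cyp4f18, the leukotriene hydroxylase of mouse neutrophils, had a log2 change of 0.33 (adjusted p = 0.0712), and passed with the row of the slide as a block (0.42, adjusted p = 0.00761). Cyp4f13, Cyp4f16 and Cyp4f17 had log2 changes of 0.10, -0.04 and 0.02, and the fatty acid hydroxylases Cyp4a10, Cyp4a31 and Cyp4v3 of -0.12, 0.02 and 0.08, with adjusted p of 0.317 to 0.949. Cyp4f15, Cyp4f39 and Cyp4f40 were seen on no array, and Cyp4f37 on 1 control array. Cyp4f37 read -7.84, -7.87 and -7.79 in PRF cells, against -7.02, -7.88 and -3.61 in control cells, so a single control array stood apart.

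Among the enzymes of vitamin D, the gene for the activating step rose. Cyp27b1, which makes the active hormone, read -3.03, -3.42 and -3.78 in PRF cells, against -5.42, -5.61 and -5.33 in control cells. All 6 arrays were above background and the change was 4.12-fold (log2 change 2.04, SE 0.19, adjusted p = 7.38e-04). Cyp2r1, which carries out the preceding hydroxylation, had a log2 change of -0.12 (adjusted p = 0.265). Cyp24a1, which inactivates the hormone, was not tested, being above background on 2 PRF arrays and no control array. The vitamin D receptor Vdr, which the hormone binds, had a log2 change of -0.19 (adjusted p = 0.0963).

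Cyp26b1, which breaks down retinoic acid and is the member of its family found in the brain, had the smallest standard error among the 15 genes that passed. It read 1.15, 1.12 and 1.004 in PRF cells, against -0.11, -0.12 and -0.24 in control cells. The change was 2.37-fold (log2 change 1.25, SE 0.07, adjusted p = 1.13e-04). Its relatives Cyp26a1 and Cyp26c1 were seen on no array.

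Of 6 steroid hormone genes 2 were tested. Cyp21a1, the adrenal hydroxylase of glucocorticoid and mineralocorticoid synthesis, read -3.11, -3.31 and -3.50 in PRF cells, against -3.92, -4.58 and -3.99 in control cells. It rose 1.81-fold (adjusted p = 0.0190). Without PRF replicate 1 or PRF replicate 2 the adjusted p was 0.0618 or 0.0600. Cyp17a1, which acts in androgen synthesis, read -1.15, -0.65 and -0.83 in PRF cells, against -0.53, -0.44 and -0.17 in control cells. Its log2 change of -0.50 did not pass (adjusted p = 0.0504). It passed as lower with the normexp background correction, the median of tested probes, quantiles, the deposited scale, the spike-ins, the filter on all 6 arrays and without PRF replicate 2 (adjusted p = 0.0039 to 0.0467). For oxysterols, Cyp39a1 and Cyp46a1 did not pass, with log2 changes of 0.12 and -0.16 (adjusted p = 0.200 and 0.403). Cyp46a1 hydroxylates cholesterol so that it can leave the brain, and Cyp39a1 hydroxylates the product. Cyp7b1, which acts on oxysterols and on steroids of the brain, was above background on 1 PRF array. Cyp20a1, whose substrate is not known, had a log2 change of -0.12 (adjusted p = 0.365).

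**Figure D3:**
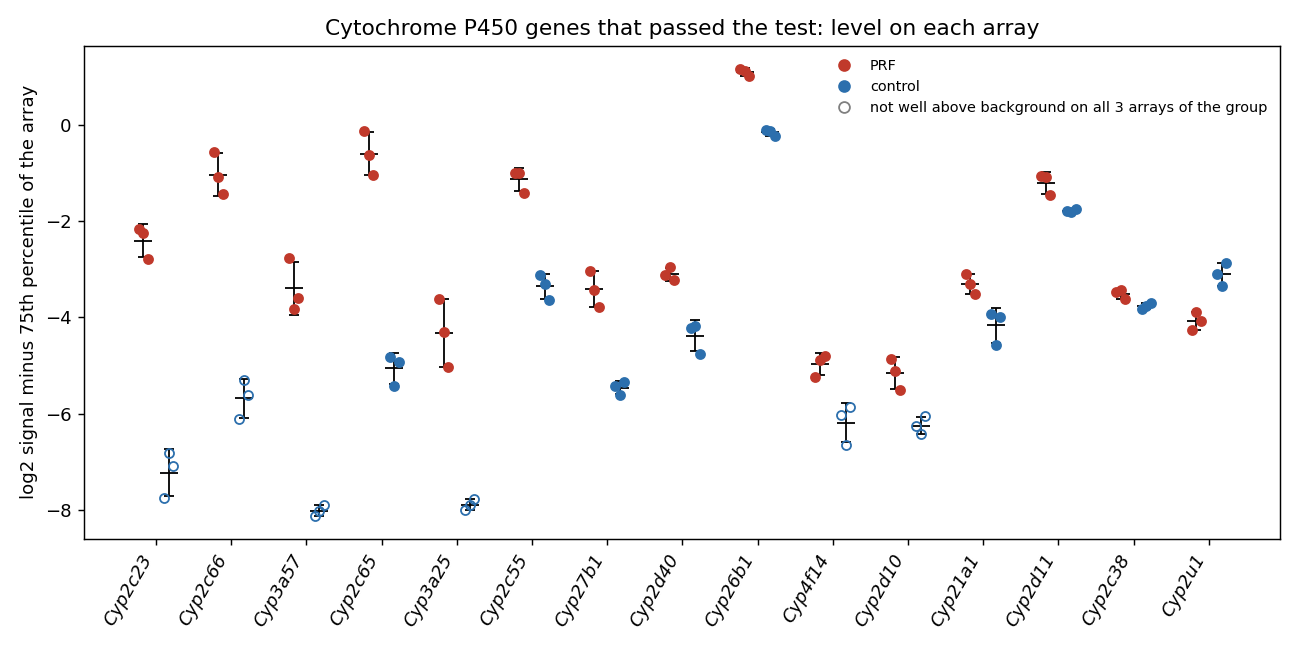
Level of the 15 P450 genes that passed the test on each array, as log2 signal relative to the 75th percentile of the array (y axis), PRF in red to the left and control in blue to the right, with the mean and SD of 3 arrays. Open circles mark a group in which the probe was not well above background on all 3 arrays; in every gene the 2 groups are separate, and Cyp2u1 alone is lower in PRF.

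The Cyp1 genes are the standard readout of the aryl hydrocarbon receptor, a sensor of aromatic compounds, and none could be tested. Cyp1a1 was above background on 2 PRF and 2 control arrays, with levels of -4.58, -5.73 and -5.21 in PRF cells, against -6.01, -5.41 and -5.57 in control cells. These groups overlapped. Cyp1a2 and Cyp1b1 were seen on no array. The receptor itself rose, with Ahr at 3.77, 3.82 and 3.94 in PRF cells, against 3.34, 3.32 and 3.21 in control cells (1.47-fold higher, adjusted p = 0.0022). Tiparp, a target and repressor of the receptor, rose 1.64-fold (adjusted p = 0.0022). Ahrr, another repressor, had a log2 change of 0.69 (adjusted p = 0.0607), and passed with normexp (adjusted p = 0.0047), with the filter on all 6 arrays (adjusted p = 0.0488) and without PRF replicate 3 (adjusted p = 0.0158). The partner Arnt and the target Ugt1a6a fell, with log2 changes of -0.23 and -0.52 (adjusted p = 0.0365 and 0.0324), so that 2 of 12 tested genes of this pathway rose and 2 fell. Over all tested genes, rises made up 17.3% and falls 14.9%.

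Genes that supply P450 enzymes with electrons and heme were read next, beside the 17.3% of all tested genes that rose and the 14.9% that fell. Por, the reductase that serves microsomal P450 enzymes, had a log2 change of -0.02 (adjusted p = 0.864). Of 11 tested redox partners Pgrmc2 rose (log2 change 0.19, adjusted p = 0.0309) and Fdxr, which serves mitochondrial P450 enzymes such as Cyp27b1, fell (log2 change -0.40, adjusted p = 0.0151). Of 12 tested genes of heme synthesis and breakdown none rose and 2 fell. One of them, Alas1, the first enzyme of heme synthesis, read 2.55, 2.72 and 2.99 in PRF cells, against 3.34, 3.44 and 3.43 in control cells (log2 change -0.65, adjusted p = 0.0079). The other was the heme oxygenase Hmox2 (log2 change -0.35, adjusted p = 0.0133).

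Nuclear receptors that control P450 genes included 5 rises among 17 tested and no fall, beside the 17.3% and 14.9% of all tested genes. Ppara, the fatty acid receptor that controls Cyp4a genes in liver, read -0.93, -1.46 and -1.66 in PRF cells, against -3.62, -3.57 and -3.23 in control cells, a 4.35-fold rise (adjusted p = 0.0008). Its liver target Cyp4a10 is described above and did not pass. Rara and Rarb, receptors for retinoic acid, rose by 0.49 and 0.68 on the log2 scale (adjusted p = 0.0032 and 0.0053), and the oxysterol receptor Nr1h3 by 0.56 (adjusted p = 0.0091). The bile acid receptor Nr1h4 was the fifth (log2 change 0.26, adjusted p = 0.0456). Nr1i2, the pregnane receptor that controls Cyp3a genes, was well above background on no array, nor were Hnf4a, Esr1, Nr5a2 and Rxrg. Nr1i3, which controls Cyp2b and Cyp2c genes in liver, had a log2 change of 1.43 that did not pass (adjusted p = 0.0583).

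Enzymes that work beside the P450 genes changed in both directions, and over all tested genes 17.3% rose and 14.9% fell. Of 9 tested genes of retinoid handling, Rdh11 fell (log2 change -0.27, adjusted p = 0.0125) and none rose. Of 10 tested genes of other steps of steroid, bile acid and oxysterol metabolism, 2 rose and 2 fell. Those that rose were Slc27a5, which activates bile acids (5.62-fold, adjusted p = 0.0001), and Star, which carries cholesterol into mitochondria for steroid synthesis (2.83-fold, adjusted p = 0.0015). Hsd3b7 and Srd5a3 fell, with log2 changes of -0.29 and -0.27. Of 10 tested conjugating and epoxide enzymes, 4 rose and 1 fell. Sult1a1 rose 2.98-fold (adjusted p = 0.0017) and Ephx2, the soluble hydrolase that removes epoxides of arachidonic acid, rose 1.67-fold (adjusted p = 0.0045). Gstp1 and Gstt1 rose by 0.23 and 0.25 on the log2 scale, and the acetyltransferase Nat2 fell (log2 change -1.03, adjusted p = 0.0031). The changes of Arnt, Ugt1a6a, Pgrmc2, Nr1h4, Gstp1 and Gstt1 each lost the call under several of the alternatives below.

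Short sequence motifs were counted in the 250 bases before the start of genes, on both strands, and matches of different motifs may share bases. RefSeq gave such a stretch for 73 of the 100 P450 genes, 32 of the 41 tested and 12 of the 14 that rose. AGGTCA was in 17 of the 73 and in 2 of the 12, Cyp3a57 and Cyp3a25, and in 13.8% of all 27025 genes. TATAAA was in 26 of the 73 (35.6%) and in 8 of the 12, against 13.0% of all genes. The AP-1 motif TGANTCA was in 5 of the 73 and none of the 12 (6.87% of all genes), and the heat shock motif GAANNTTC in 5 and 1, Cyp2d10 (6.78%). GCGTG, the core bound by the aryl hydrocarbon receptor, was in 14 and 1, Cyp4f14 (28.2%). These counts describe letters, and the sets were not tested against each other.

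The arrays lay on 1 slide in 2 rows, with PRF replicate 2 and control replicates 1 and 3 in row 1, and PRF replicates 1 and 3 and control replicate 2 in row 2. With the row as a block 14 P450 genes rose and 1 fell (34.1% and 2.4%, against 15.0% and 10.4% of all tested genes). Of the 14 rises, 13 were the same, with Cyp2c38 lost (adjusted p = 0.0619) and Cyp4f18 gained. Within a row, 1 array of a group stands against 2 of the other and is taken to vary like them, so these fits have little to estimate the spread from. By limma 11 P450 genes rose and none fell within row 1 (8.1% and 1.5% of all tested genes), and 7 rose and 1 fell within row 2 (4.6% and 0.1%). Cyp2d40, Cyp21a1, Cyp2c38 and Cyp2u1 missed the threshold within row 1 and also within row 2, and Cyp3a25, Cyp27b1, Cyp4f14, Cyp2d10 and Cyp2d11 within row 2. The rises within row 2 included Cyp4f41-ps, and the fall there was Cyp2t4. PRF replicate 1 had the highest PRF level in 11 of the 14 genes that rose (78.6%), where it did in 61.4% of all genes that rose. Without it 12 P450 genes rose (29.3%, against 14.1% of all tested genes), and Cyp21a1 and Cyp2c38 lost the call.

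The scaling of the arrays and the background correction changed sizes more than directions among the 15 genes. With the normexp background correction the log2 change was 1.39 for Cyp2c23, 2.35 for Cyp2c66, 1.07 for Cyp3a57, 2.49 for Cyp2c65, 0.68 for Cyp3a25, 1.52 for Cyp2c55 and 0.74 for Cyp27b1, and all 7 still passed. Of the others that passed at the 75th percentile, Cyp2d40 had 0.60, Cyp4f14 0.30, Cyp2d10 0.29, Cyp21a1 0.41 and Cyp2u1 -0.35 with that correction, and Cyp2c38 lost the call. Under quantile normalization Cyp4f14 had a log2 change of 0.70 (adjusted p = 0.0515), Cyp2d10 of 0.57 and Cyp21a1 of 0.54, and on the deposited scale the adjusted p of Cyp2d11 was 0.0595. The number of P450 genes that fell depended on the scaling, as it did over all genes. Under quantile normalization 12 rose and 7 fell (29.3% and 17.1%, against 14.5% and 20.8% of all tested genes). On the deposited scale 13 rose and 5 fell (31.7% and 12.2%, against 11.3% and 24.3%), and with the spike-in probes 13 rose and 8 fell (31.7% and 19.5%, against 12.3% and 39.2%). On the deposited scale and with the spike-ins the median log2 change of all tested genes was -0.15 and -0.20, and the median of the 41 P450 genes was -0.05 and -0.10, above it in both.

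**Figure D4:**
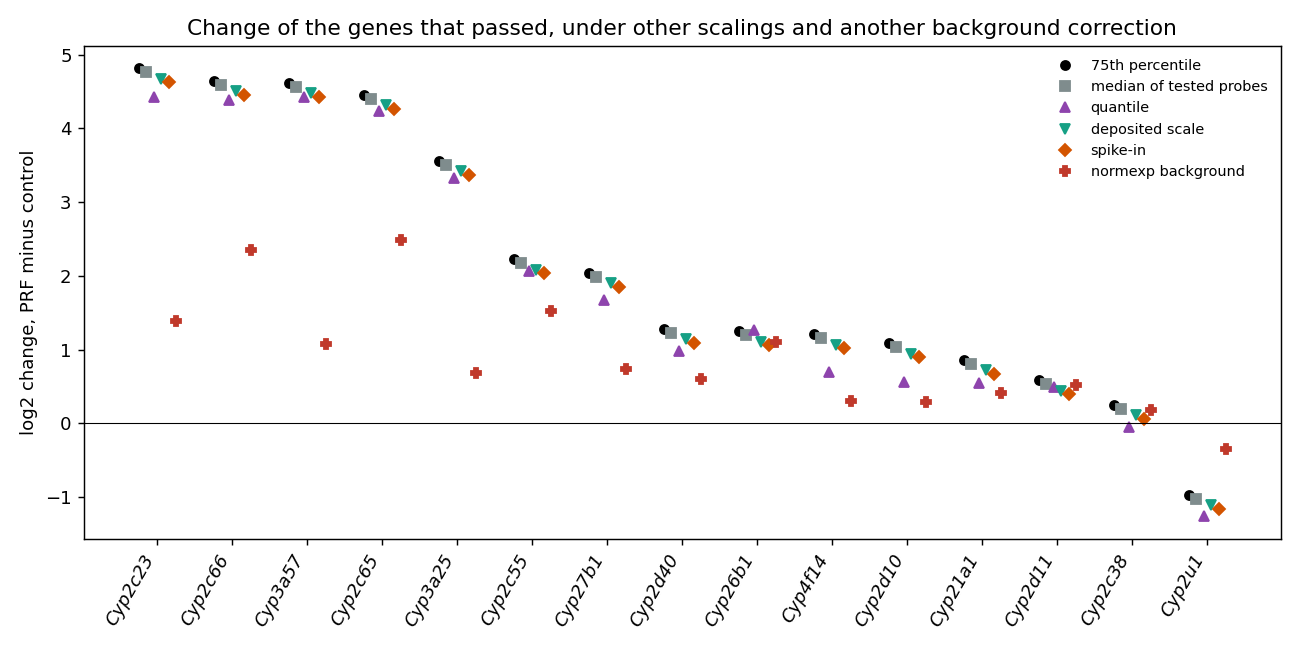
Log2 change, PRF minus control (y axis), of the 15 P450 genes that passed, with arrays scaled by the 75th percentile, the median of tested probes, quantiles, not at all (deposited scale) or by spike-in probes, and with the normexp background correction. The first 7 genes stay at 1.67 or above under every scaling and lie between 0.68 and 2.49 with normexp, and Cyp2c38 is at -0.050 under quantile normalization.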

How the data were processed

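Total RNA of 6 samples was measured on 6 one-colour arrays (3 PRF, 3 control). Per the file headers, the deposited scanner files were made with Agilent Feature Extraction 10.7.3.1. For each spot they hold the intensity as a median, the local background, a processed signal already corrected for background, and flags. The arrays had not been scaled to each other. The series table deposited by the authors held the same intensity values within a relative tolerance of 1e-04. The sources used here do not give how the authors compared groups.

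Control spots and spots with outlier flags were left out, spots of a probe were averaged, and log2 processed signals were set against each array's 75th percentile. Probes were named through transcripts of the RefSeq table of GRCm38.p6: 32989 of 56605 probes had 1 symbol and 23616 had none. The array design uses an older build, so coordinates are given only for the RefSeq sequences. The brightest tested probe by its mean over 6 arrays stood for a gene, and 17 P450 genes had several probes. No P450 spot carried an outlier flag or was saturated. Tests used limma 3.58.1 (lmFit, eBayes, two-sided) in R 4.3.3. The design held only the group, and the code was tested on simulated data. With 3 arrays each, the number of arrays limits the precision, and an exact permutation test cannot go below 0.1. The bound for a group not well above background is a ratio of group means, with the dim group's value on each array set to the higher of its own signal and the lowest signal well above background.

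The members and all gene lists were chosen with earlier results of these data known. The rule named every P450 gene that passed, was above background on all 6 arrays or had only a bound, some fixed P450 genes, up to 4 genes of each other list with the smallest p, and Ahr, Arnt, Ahrr, Tiparp and Por. Cyp2c67, Cyp3a59 and other genes outside the rule, and the genes flanking the 2 clusters, were added after their values were seen. Alternatives were other scalings, normexp (offset 50, on the median signal, since no mean signal is in the files used here), other filters, blocks, array rows, single arrays left out, the mean of all tested probes of a gene and, added after the data were seen, scaling by 7 of 10 spike-in probes.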

Additional observations from a re-analysis of the deposited data

Results flagged for a closer look

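Cyp24a1, which inactivates vitamin D, gave signal outside the test. It was well above background on 2 PRF arrays and on no control array, with levels of -5.58, -5.41 and -6.04 in PRF cells (mean -5.68), against -6.08, -6.30 and -6.49 in control cells.

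Cyp2b13, a relative of the phenobarbital-inducible liver enzymes, did the same, with levels of -5.72, -4.97 and -4.75 in PRF cells (mean -5.15), against -5.91, -7.06 and -6.52 in control cells. Neither gene was tested, since neither was above background on all 3 arrays of a group.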

How the results depend on the processing

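Of 2306 single-gene values under 19 alternatives, 2062 kept direction and side of the threshold, 146 lost the call, 95 gained it and 3 reversed. The 3 were under quantile normalization: Cyp2c38 (-0.050), Pparg (-0.20) and Hsd3b1 (-0.39). Cyp2c65, Cyp2c55 and Cyp26b1 kept the call under every alternative. Cyp2c23, Cyp2c66 and Cyp3a57 kept it under every alternative that could be fitted. The filter on all 6 arrays left out Cyp2c23, Cyp2c66 and Cyp3a57, which entered the test only through the PRF arrays. Their calls rest on control signals at or near background, so they are not on the same footing. The 14 rises became 8 with the filter on all 6 arrays and 7 within row 2, and 12 to 14 with 1 array left out. The 1 fall became 2 with normexp, 7 with quantiles, 3 with the median of tested probes, 5 on the deposited scale, 8 with spike-ins, 3 with the filter on all 6 arrays, 0 within row 1, and 1 to 2 with 1 array left out. With the replicate number as a block it was 2, beside 13 rises. There Cyp2c38 was lost (adjusted p = 0.0828), Cyp17a1 gained (0.0409), and Ahrr among the partner genes gained (0.0074). Falls made up 4.9% of the tested P450 genes with normexp (17.3% of all tested genes) and 7.3% with the median of tested probes (21.1%). They made up 9.1% with the filter on all 6 arrays (16.5%) and 4.9% with the replicate block (13.2%). Deviations of same-numbered arrays correlated at 0.145, -0.0838 and 0.0458, and not every array correlated best with its own number. With 3 arrays per group these values cannot settle whether the numbers pair the samples. Arrays with the same number also lay in the same column of the slide, so the replicate block is a column block as well. Of the 46 probes 14 rose and 1 fell; the rises became 8 with the filter, 1 within row 2 and 12 to 15 with 1 array left out. The probe falls became 2 with normexp, 7 with quantiles, 3 with the median, 3 on the deposited scale, 8 with spike-ins, 2 with the filter, 2 with the replicate block, 0 within row 1, 0 within row 2, and 1 to 2 with 1 array left out. The probe counts under these alternatives are given without shares of all probes. The median log2 change of 0.0859 became 0.0713 with normexp, 0.0583 with quantiles, 0.0320 with the median of tested probes, -0.0549 on the deposited scale, -0.104 with spike-ins, 0.0227 with the filter, 0.0996 within row 2, and 0.0750 to 0.0946 with 1 array left out. The 23 calls among partner, regulator and heme genes became 36 with spike-ins, and 15 to 23 with 1 array left out, 15 being without PRF replicate 2. Over all tested genes 32.2% were called, 17.3% as higher and 14.9% as lower. With spike-ins 12.3% of all tested genes were called higher and 39.2% lower, so falls became more common over all genes as well. Rows and left-out arrays hold fewer arrays, and the filter tests fewer genes; for the other changes the cause was not tested. Signals near background limit the size of the largest changes.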
